A study of Mus musculus with 9 samples.

Results

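The Id genes (Id1, Id2, Id3 and Id4) and the genes of the inhibitory Smads (Smad6 and Smad7) were followed through 70 transcribed regions, out of 174289 in the whole data set. A region was taken when its centre lay inside one of the 6 genes or within 20 kb of either annotated end, and 14 were taken for Id1, 11 for Id2, 12 for Id3, 12 for Id4, 13 for Smad6 and 8 for Smad7. The regions themselves had been called by the authors from nascent transcription, so that a region carries signal is no finding. The genes were proposed when the rise of the region at the start of Id3 at 15 min was already known. The values of Id3 at 15 against 0 min are therefore a description, with no p-value, and so are those at 30 against 0 min, which share the 0 min libraries.

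The assay was PRO-seq, a nuclear run-on that reads where RNA polymerase is elongating, and the cells were mouse embryonic stem cells. All 9 libraries came from cells with a Firre knockout (Firre KO) and an inducible transgene of Firre, which encodes a long non-coding RNA of the nucleus. Doxycycline, the inducer, was given at 0 ng/μL to the cells collected at 0 min and at 1 ng/μL to those collected at 15 and 30 min, with 3 libraries at each time. All groups were grown without feeders on gelatin, in serum with LIF, the MEK inhibitor PD0325901 and the GSK3 inhibitor CHIR99021. Every group thus carries the knockout and the transgene, and no group was given doxycycline in the absence of the transgene, so drug and Firre RNA cannot be told apart as sources of a change. Separate cultures are not named in the labels for the 3 libraries of each time, so the p-values rest on a spread that may be technical.

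Libraries held 3813365 to 5980366 reads in the regions. Signal is given in counts scaled by library size and TMM (CPM) within windows of 600 bp, so levels of different regions refer to the same length. A count of 3 corresponds to 0.502 to 0.787 CPM, and counting error alone is covered by that figure. Summed over the 7 regions centred inside Firre, the libraries had 2.36 to 4.48 CPM before induction, 232 to 289 CPM 15 min after it and 670 to 678 CPM by 30 min. The stem cell label was checked on gene-end regions of marker genes. Of 8 pluripotency markers listed, 6 had such a region (Nanog, Sox2, Klf4, Zfp42, Tfcp2l1 and Tbx3), while Pou5f1 and Esrrb had none. The 6 summed to 868 to 981 CPM in the 9 libraries. Fewer of the other markers had a region. The 3 of 8 fibroblast markers summed to 0.932 to 3.50 CPM, and the 2 of 5 of primitive endoderm to 0.448 to 2.48 CPM. The 2 of 4 mesoderm markers summed to 2.19 to 5.93 CPM, and the 3 of 4 of neuroectoderm to 6.67 to 13.0 CPM. No tested marker was called at any time, and none with a region had 0 reads. Tested were 6 pluripotency, 1 fibroblast, 1 mesoderm and 2 neuroectoderm markers, and 0 of primitive endoderm.

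Bone morphogenetic proteins (BMPs) bind pairs of serine/threonine kinase receptors that phosphorylate Smad1, Smad5 and Smad9, which enter the nucleus with Smad4. The Id genes and the genes of the inhibitory Smads are among the direct targets of this signal in many cell types. Id proteins have a helix-loop-helix domain but no DNA-binding region, and they hold E proteins away from DNA. In mouse stem cells they are known for restraining neural differentiation under LIF and BMP. Smad6 and Smad7 act back on the pathway, Smad6 mainly on BMP signals and Smad7 on both BMP and TGF-beta signals.

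The 250 bases before the annotated transcription start are shown for the 4 genes with a RefSeq entry (build GRCm38.p6). Called regions below lie over the starts of Id3 and Smad6. Others of these genes lie from 997 bp upstream of the start of Smad6 to 4.07 kb downstream of that of Id3. The called region of Id4 lies 3.75 kb downstream of its start. The regions over the starts of Id2 and Id4 were not called. Capitals mark GGCGCC, a GC-rich element reported for BMP-activated Smads, and CAGAC, which holds the Smad box, or its complement GTCTG. Both strands were searched, and the marked matches do not overlap one another.
Id2 (chr12:25096093-25096342, minus strand): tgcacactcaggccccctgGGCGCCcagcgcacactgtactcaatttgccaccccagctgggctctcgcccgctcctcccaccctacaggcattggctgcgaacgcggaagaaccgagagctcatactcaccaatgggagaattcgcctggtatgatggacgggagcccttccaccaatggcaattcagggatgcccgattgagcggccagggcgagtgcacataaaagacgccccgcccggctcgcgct
Id3 (chr4:136143572-136143821, plus strand): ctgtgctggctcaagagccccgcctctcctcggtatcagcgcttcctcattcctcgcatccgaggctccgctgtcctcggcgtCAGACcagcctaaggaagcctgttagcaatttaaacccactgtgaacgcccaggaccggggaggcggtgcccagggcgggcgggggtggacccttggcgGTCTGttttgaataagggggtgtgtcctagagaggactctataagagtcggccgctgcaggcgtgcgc
Id4 (chr13:48260866-48261115, plus strand): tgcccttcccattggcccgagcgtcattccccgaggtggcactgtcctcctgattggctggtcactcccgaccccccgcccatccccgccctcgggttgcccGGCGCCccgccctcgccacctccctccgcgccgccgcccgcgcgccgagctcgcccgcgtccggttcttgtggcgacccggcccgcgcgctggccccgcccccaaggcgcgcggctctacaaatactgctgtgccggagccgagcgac
Smad6 (chr9:64022060-64022309, minus strand): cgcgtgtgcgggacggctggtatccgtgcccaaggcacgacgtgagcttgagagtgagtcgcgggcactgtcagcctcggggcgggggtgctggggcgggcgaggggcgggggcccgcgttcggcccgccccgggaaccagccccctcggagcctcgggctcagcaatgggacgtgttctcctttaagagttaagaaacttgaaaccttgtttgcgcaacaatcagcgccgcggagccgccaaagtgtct

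Id2 and Id4 each held 1 GGCGCC, starting 231 and 148 bases before the start, and 3149 of 32851 annotated promoters of the same length (9.59%) held that sequence. Id3 held CAGAC at 167 bases and GTCTG at 68 bases before the start, a motif found in 42.2% of those promoters. Smad6 held neither sequence in this window, which says nothing of the factors. The longer palindrome GTCTAGAC, in 0.167% of promoters, was in none of the 4. The sequence CCAAT was found in Id2 and Id4, as in 33.8% of promoters. GC content was 62.8% for Id2, 62.8% for Id3, 75.6% for Id4 and 66.8% for Smad6, against a median of 52.4% over all promoters. Id1 and Smad7 had no entry.

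Of the 70 regions, 12 were centred within 1 kb of an end of their gene, 7 lay deeper inside it and 51 in the flanks. A test was possible for 33 of the 70, of which 11 were gene-end, 7 inside and 15 flanking regions. The other 37 averaged 0 to 8 reads per library and were removed by the filter on low counts. They were 8 regions of Id1, 7 of Id2, 8 of Id3, 6 of Id4, 5 of Smad6 and 3 of Smad7, and 1 of them, near Id2, had 0 reads in all 9 libraries. The regions as first merged by the authors had a median width of 570 bp, against 342 bp over all regions, and the widest, 2600 bp, lay inside Smad6. The regions nearest to the 20 kb limit were weak. One of Id2 at 19.9 kb averaged 0.573, 1.43 and 0.733 CPM at 0, 15 and 30 min. Just outside, a region 20.1 kb from Smad7 averaged 2.49, 2.10 and 1.36 CPM at these times, and one at 20.3 kb averaged 2.82, 5.12 and 7.30 CPM.

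At 15 against 0 min, 4 member regions were called higher and 3 lower at an adjusted p under 0.05 (edgeR's quasi-likelihood test on all 9 libraries, Benjamini-Hochberg over 54299 tested regions). Over all tested regions 4.29% were called higher and 3.96% lower, or 8.25% in either direction. Of the 4 higher regions 3 belong to Id3, which was picked for its rise, so this count is no support for a property of the group. At 30 against 0 min the calls were 3 higher, again those of Id3, and 1 lower, with 1.24% and 0.497% over all regions and 1.74% in either direction. From 15 to 30 min 0 regions were called, against 0.704% over all regions. DESeq2 called 0 from 15 to 30 min. At an unadjusted p under 0.05, 11 of the 33 passed at 15 min, 13 at 30 min and 3 from 15 to 30 min, Id3 included, against 23.2%, 15.2% and 9.63% of all tested regions. Regions whose library values did not overlap numbered 6 higher and 5 lower of the 33 at 15 min, against 13.7% and 11.8% of all tested regions. At 30 min they were 8 and 7, against 11% and 9.39%, and from 15 to 30 min 6 and 1, against 7.8% and 8.17%. The 3 called regions of Id3 are among the 6 higher at 15 min and among the 8 higher at 30 min. These counts are thus no support for a property of the group either. The median log2 change of the 33 was -0.08 at 15 min and -0.01 at 30 min, and over all tested regions it was 0.02 and -0.001.

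**Figure D1:**
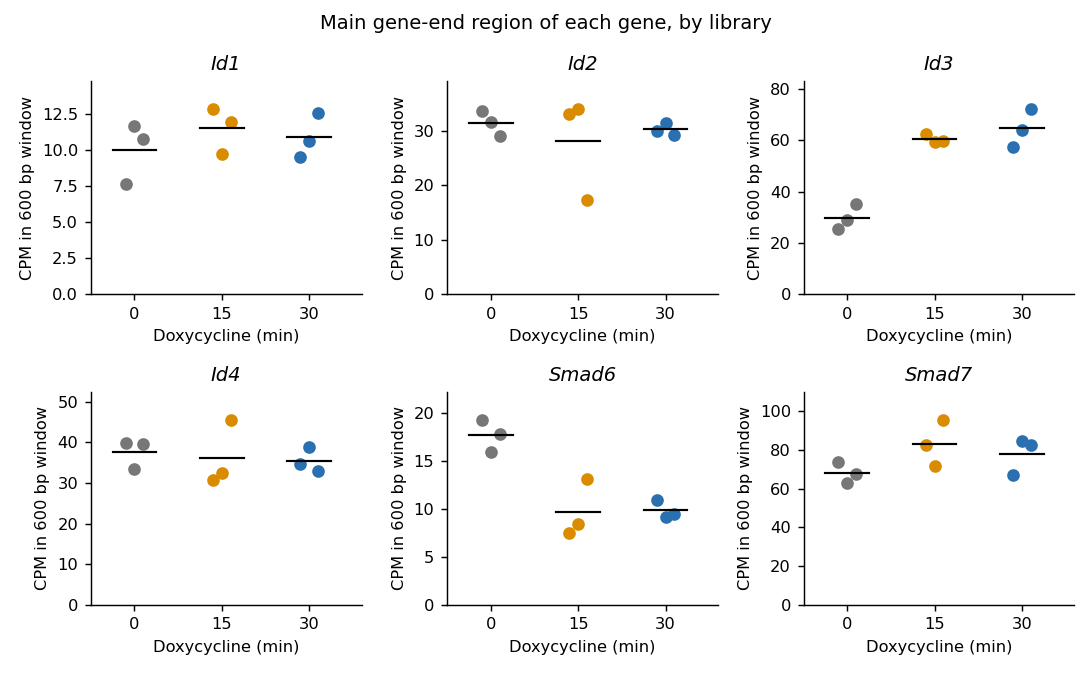
Signal (CPM in a 600 bp window, linear axis from 0) at the gene-end region of highest count for each of the 6 genes, by minutes of doxycycline. Each point is 1 library and each bar the mean of 3. At Id3 all libraries of 15 and 30 min lie above all of 0 min, at Smad6 they all lie below, and in the other 4 genes the times overlap.

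Before doxycycline the gene-end regions of highest count ranked from Smad7 down to Id1. At 0 min they averaged 68.1 ± 5.21 CPM for Smad7, 37.7 ± 3.55 CPM for Id4, 31.5 ± 2.29 CPM for Id2, 29.8 ± 4.97 CPM for Id3, 17.7 ± 1.71 CPM for Smad6 and 10.0 ± 2.11 CPM for Id1 (mean ± SD, n = 3 libraries). The ranges of Id4, Id2 and Id3 overlapped, with 33.6 CPM in the lowest of Id4 and 33.7 and 35.1 CPM in the highest of Id2 and Id3. Within each 0 min library Id4 was above both Id2 and Id3, while Id2 and Id3 changed order. The order of these neighbours was not tested. Smad7 stood at percentile 90.4 of all tested gene-end regions, and Id1 at percentile 42.3. At 15 and 30 min Id3 averaged 60.6 ± 1.67 and 64.7 ± 7.38 CPM, second to Smad7 at 83.2 ± 12.1 and 78.1 ± 9.75 CPM.

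Id3 encodes one of the Id proteins, and its 3 strong regions all had higher signal after doxycycline. The region over its transcription start (bidir_114680, chr4:136143421-136144020, centred 102 bp before the start) gave 25.3, 28.9 and 35.1 CPM at 0 min, 62.5, 59.5 and 59.8 CPM at 15 min, and 57.6, 64.1 and 72.3 CPM at 30 min. The lowest treated library lay well above the highest untreated one. Its log2 change was 1.03 ± 0.14 (SE) at 15 min, a description as stated above. At 30 against 0 min it was 1.13 ± 0.14, with the same 0 min libraries. From 15 to 30 min the change was 0.09 ± 0.13 (95% interval -0.18 to 0.37), with overlapping libraries. In bulk libraries, more cells transcribing a gene and more polymerase per cell cannot be told apart, here or below.

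The second region of Id3 (bidir_114681, chr4:136144523-136145122) is centred 1000 bp past the start and 570 bp before the annotated end of this short gene. It gave 16.5, 30.0 and 31.2 CPM at 0 min, 52.3, 52.0 and 47.1 CPM at 15 min, and 58.1, 54.2 and 67.6 CPM at 30 min. No treated library overlapped an untreated one, and library 1 of 0 min was the lowest. Its 15 min log2 change was 0.99 ± 0.18, and that at 30 min was 1.23 ± 0.18. Past the gene, at 2.50 kb from its annotated end, bidir_114682 (chr4:136147590-136148189) gave 12.0, 13.2 and 18.4 CPM at 0 min, 24.7, 27.3 and 31.8 CPM at 15 min, and 31.9, 20.9 and 27.5 CPM at 30 min. Here too the treated libraries lay above the untreated ones. The log2 change was 0.95 ± 0.20 at 15 min, and at 30 min it was 0.90 ± 0.20. Its place among the 30 min calls was lost when 0 min library 1, 30 min library 1 or 30 min library 3 was left out. Its log2 change was then 0.76, 0.73 and 0.88, as a description.

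These windows do not overlap one another, but they lie in 1 transcription unit and its downstream flank and are not independent replicates. The strand counted is not stated in the sources used here, so reads of the gene and of antisense transcription cannot be told apart. The only other tested region of Id3 (bidir_114688), 19.9 kb past its end, averaged 2.13 ± 0.634 CPM at 15 min and 1.82 ± 1.18 CPM at 30 min, against 2.03 ± 0.713 CPM at 0 min. The sum over the 12 regions of Id3 was 144 ± 0.981 CPM at 15 min and 156 ± 15.8 CPM at 30 min, against 74.3 ± 15.9 CPM at 0 min. Over all genes, read at their main gene-end region, 2.1% were called higher and 8.38% lower at 15 min, and 0.542% higher and 0.846% lower at 30 min.

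**Figure D2:**
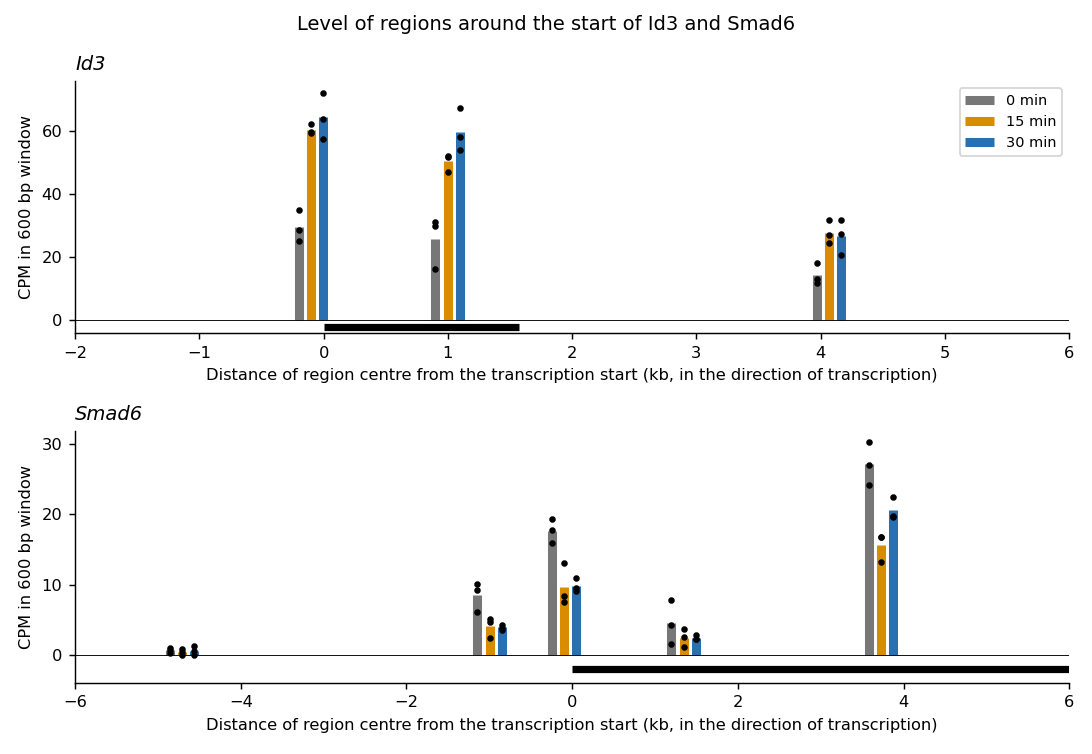
Mean signal (bars, CPM in a 600 bp window) and single libraries (points, 3 per time) at regions around the start of Id3 (upper panel) and Smad6 (lower panel), by distance in kb from the transcription start. The bars of 15 min stand at the region's centre and those of 0 and 30 min are set beside it, and the black line marks the gene, cut at the panel's edge for Smad6. Near Id3 the 3 regions average 27.9 to 60.6 CPM at 15 min against 14.5 to 29.8 CPM at 0 min, and at the start of Smad6 the level is lower at both later times.

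Smad6 encodes an inhibitory Smad that competes in BMP signalling, and its regions around the start moved the other way. The region over the start (bidir_160868, chr9:64021859-64022458, centred 99 bp before it) gave 19.3, 15.9 and 17.8 CPM at 0 min, 7.50, 8.39 and 13.1 CPM at 15 min, and 10.9, 9.13 and 9.48 CPM at 30 min. All treated libraries were below all untreated ones, and 15 min library 3 was the nearest to them. It fell by 0.90 ± 0.22 on the log2 scale at 15 min (edgeR, adjusted p = 0.0115) and by 0.84 ± 0.22 at 30 min (adjusted p = 0.0445). The call at 15 min was lost without 0 min library 1 (adjusted p = 0.0552), 15 min library 1 (0.0913) or 15 min library 2 (0.0585). The call at 30 min was lost without 0 min library 1 (0.208) or 3 (0.107), without 30 min library 1 (0.100), 2 (0.156) or 3 (0.160), and with scaling on gene ends (0.0671). Over 17 alternatives the log2 change lay between -1.165 and -0.74 at 15 min and between -0.94 and -0.74 at 30 min. With each of those 5 libraries left out, 0.190% to 0.707% of all genes were called at 30 min, against 1.39% with all libraries.

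Upstream of the start by 997 bp, bidir_160869 (chr9:64022757-64023356) gave 10.1, 6.04 and 9.18 CPM at 0 min, 4.67, 5.15 and 2.43 CPM at 15 min, and 3.83, 3.54 and 4.27 CPM at 30 min. The treated values all lay below the untreated ones. It fell by 1.02 ± 0.30 on the log2 scale at 15 min (edgeR, adjusted p = 0.0333), and at 30 min its change of -1.13 ± 0.30 did not pass (adjusted p = 0.0529), though it did in 6 alternatives, with adjusted p from 0.0247 to 0.0498. The 15 min call did not hold without 0 min library 1 (0.163) or 3 (0.0882) or 15 min library 1 (0.0741) or 3 (0.0922). It was also lost in a fit of the 2 times alone (0.0563) and with scaling on gene ends (0.0789).

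Inside the gene, 3.73 kb past the start, bidir_160866 (chr9:64018032-64018631) had the highest level at 0 min of the Smad6 regions. It gave 30.3, 27.1 and 24.1 CPM at 0 min, 13.2, 16.8 and 16.8 CPM at 15 min, and 22.4, 19.8 and 19.7 CPM at 30 min. The times did not overlap, and 30 min lay between the other 2. It fell by 0.82 ± 0.18 on the log2 scale at 15 min (edgeR, adjusted p = 0.00415), a call that held in all 17 alternatives run, the highest adjusted p being 0.0442. At 30 min the change was -0.40 ± 0.17 (adjusted p = 0.250), and from 15 to 30 min it was 0.41 ± 0.18 (adjusted p = 0.439), which the test did not call. Between this region and the start, bidir_160867 averaged 2.43 ± 1.24 CPM at 15 min and 2.42 ± 0.366 CPM at 30 min, against 4.52 ± 3.13 CPM at 0 min, and was not called (log2 -0.99 ± 0.46 at 15 min, adjusted p = 0.194).

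The 4 tested regions in the far part of Smad6, 55.7 to 63.5 kb past the start, were not called at any time. The strongest of them, bidir_160863, averaged 4.65 ± 1.59 CPM at 15 min and 4.85 ± 1.48 CPM at 30 min, against 5.00 ± 1.18 CPM at 0 min. Of these 4 regions 3 had a positive log2 change at 15 min (0.22 to 0.49) and 1 a negative one (-0.08), each smaller than its SE. At 30 min the weakest of them, bidir_160862, gave 0.911, 0.559 and 0.948 CPM, below its 2.17, 1.33 and 2.67 CPM at 15 min and its 1.42, 2.01 and 1.84 CPM at 0 min. Its log2 change was -1.10 ± 0.57 at 30 against 0 min (edgeR, adjusted p = 0.371) and -1.32 ± 0.55 at 30 against 15 min (adjusted p = 0.420). The 30 min levels are close to that of 3 counts. The other 3 were at -0.04 to 0.36 at 30 against 0 min. Whether the regions near the start differ in their change from those far inside was not tested. The sum over the 13 regions of Smad6 was 44.0 ± 7.06 CPM at 15 min and 47.5 ± 4.05 CPM at 30 min, against 68.9 ± 6.81 CPM at 0 min.

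Smad7, the other inhibitory Smad gene, had 1 dominant region, bidir_77428, centred 417 bp outside the lower-coordinate end of the gene on chromosome 18, which held 81.2% of the signal of its 8 regions. Its values were 73.5, 63.1 and 67.6 CPM at 0 min, 82.5, 71.5 and 95.7 CPM at 15 min, and 66.9, 84.6 and 82.7 CPM at 30 min. The times overlapped. The log2 change was 0.29 ± 0.13 at 15 min (edgeR, adjusted p = 0.188) and 0.19 ± 0.13 at 30 min (adjusted p = 0.519, 95% interval -0.08 to 0.46). Scaling on gene ends moved the 15 min value to 0.43 and called it (adjusted p = 0.0296). The lncRNA gene Gm20544 ends within 1 kb of this region, and reads of the 2 genes cannot be told apart without strand. The other 4 tested regions of Smad7, 13.7 kb before that end to 16.3 kb past the other end of the gene, averaged 1.95 to 5.00 CPM at 0 min and were not called.

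Id4 showed a called rise at an internal region and not at its start. The 2 strong regions were bidir_45392 over the start (chr13:48260679-48261278) and bidir_45393, 984 bp past it (chr13:48261801-48262400), where the lncRNA gene A330033J07Rik also ends. Both are centred inside A330033J07Rik, and its reads cannot be told apart from those of Id4 without strand. The first region averaged 24.0 ± 2.31 CPM at 15 min and 27.2 ± 5.31 CPM at 30 min, against 27.1 ± 3.43 CPM at 0 min. The second gave 39.9, 33.6 and 39.6 CPM at 0 min, 30.7, 32.4 and 45.7 CPM at 15 min, and 34.6, 38.8 and 32.9 CPM at 30 min. The times overlapped in both, and the log2 changes at 15 min were -0.18 ± 0.17 (95% interval -0.54 to 0.18) and -0.07 ± 0.16 (-0.39 to 0.26).

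Further in, 3.75 kb past the start of Id4, bidir_45394 (chr13:48264563-48265162) gave 4.96, 7.16 and 2.88 CPM at 0 min, 11.3, 8.77 and 14.3 CPM at 15 min, and 9.47, 7.83 and 9.24 CPM at 30 min. All treated values were above the untreated ones. It rose by a log2 of 1.16 ± 0.28 at 15 min (edgeR, adjusted p = 0.00988), a call lost without 0 min library 3, the lowest (adjusted p = 0.0674). At 30 min the change was 0.80 ± 0.29 (adjusted p = 0.161). The other 3 tested regions, 10.3 to 15.8 kb upstream, averaged 2.37 to 5.93 CPM at 15 min and 3.24 to 5.77 CPM at 30 min, against 1.41 to 5.05 CPM at 0 min, and were not called. These 3 also lie inside the lncRNA gene A330033J07Rik.

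At Id1, often used as the marker gene of BMP signalling, the region over the lower-coordinate end (bidir_92696, chr2:152736209-152736808) gave 7.62, 11.6 and 10.8 CPM at 0 min, 12.8, 9.72 and 11.9 CPM at 15 min, and 9.47, 10.6 and 12.6 CPM at 30 min. The times overlapped, and the log2 change was 0.22 ± 0.23 at 15 min (95% interval -0.25 to 0.68) and 0.13 ± 0.23 at 30 min (-0.34 to 0.60). This window overlaps that of the weaker bidir_92695. Beyond the other end, bidir_92697 averaged 4.16 ± 0.995 CPM at 15 min and 4.46 ± 1.56 CPM at 30 min, against 4.90 ± 0.102 CPM at 0 min.

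A pair of flanking regions of Id1 had its lowest mean at 15 min without being called. The first, bidir_92691, 8.30 kb outside the lower-coordinate end (chr2:152727654-152728253), gave 4.07, 4.70 and 5.77 CPM at 0 min, 1.83, 2.48 and 2.67 CPM at 15 min, and 4.74, 4.66 and 3.56 CPM at 30 min. The 15 min libraries lay below all others. Its log2 change was -1.05 ± 0.34 at 15 min (edgeR, adjusted p = 0.0551), with a call under library size alone (0.0477) and under DESeq2 size factors (0.0492). The second, bidir_92692, 6.84 kb outside that end, gave 3.72, 5.82 and 3.15 CPM at 0 min, 0.833, 1.72 and 2.91 CPM at 15 min, and 2.73, 1.68 and 2.37 CPM at 30 min. Its change was -1.28 ± 0.44 at 15 min (adjusted p = 0.0685), called without 15 min library 3 (log2 -1.74, adjusted p = 0.0181). On the other side, bidir_92698 at 4.35 kb past the gene averaged 2.19 ± 0.602 CPM at 15 min and 2.80 ± 0.897 CPM at 30 min, against 1.11 ± 0.315 CPM at 0 min, and was not called (adjusted p = 0.262 and 0.198).

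Id2, the remaining Id gene, was not called in any of its 4 tested regions. The region over its start (bidir_35804, chr12:25095931-25096530) gave 33.7, 31.8 and 29.1 CPM at 0 min, 33.2, 34.1 and 17.2 CPM at 15 min, and 30.1, 31.5 and 29.4 CPM at 30 min. The times overlapped, and 15 min library 3 stood apart as the lowest. The log2 change was -0.15 ± 0.19 at 15 min (95% interval -0.53 to 0.23) and -0.06 ± 0.19 at 30 min (-0.44 to 0.32). At the other end of Id2, bidir_35803 (chr12:25093100-25093699) gave 8.33, 7.39 and 8.91 CPM at 0 min, 8.33, 10.7 and 12.1 CPM at 15 min, and 9.47, 14.0 and 16.1 CPM at 30 min. The 30 min libraries lay above those of 0 min, and the change of 0.67 ± 0.24 did not pass (edgeR, adjusted p = 0.155). Upstream by 2.74 kb, bidir_35805 averaged 11.2 ± 2.23 CPM at 15 min and 11.4 ± 2.62 CPM at 30 min, against 12.1 ± 4.15 CPM at 0 min.

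**Figure D3:**
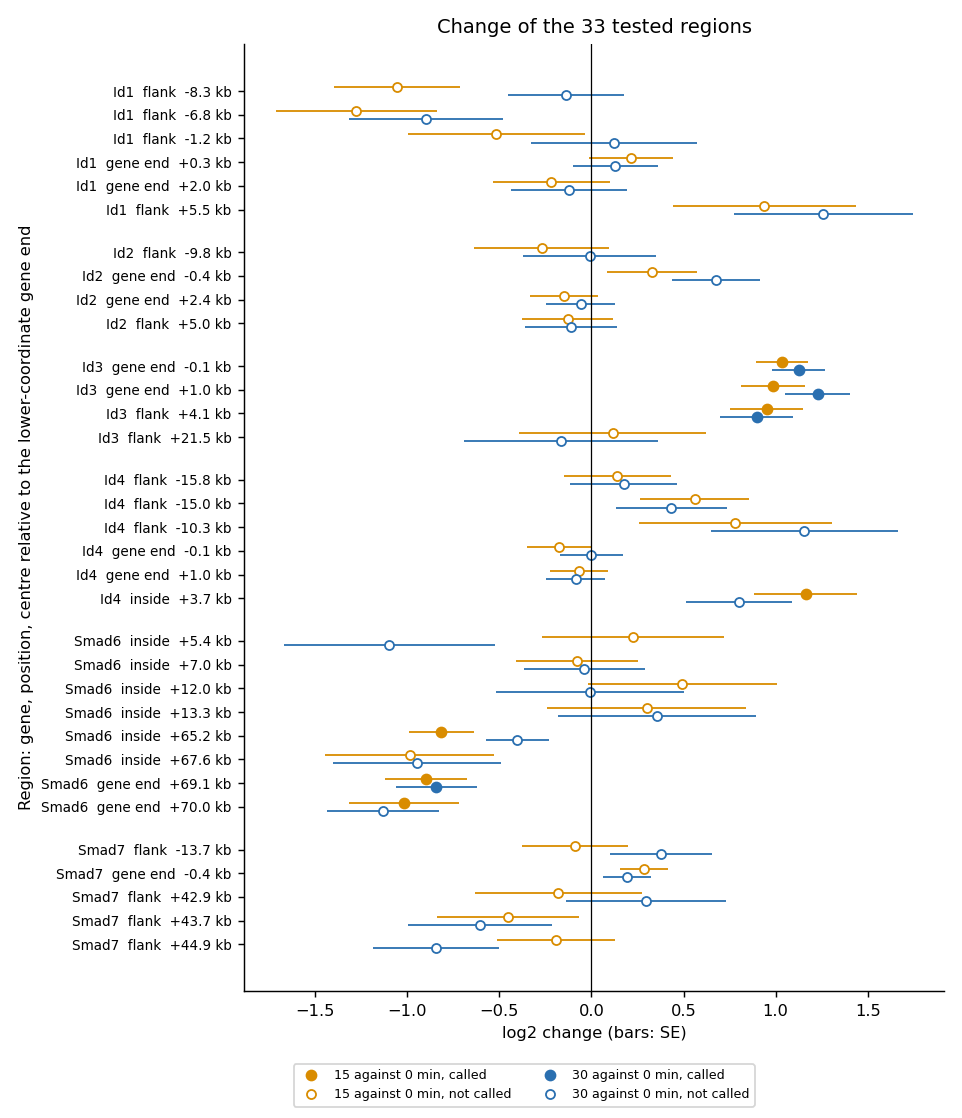
Change in log2 units (points, bars SE) of each of the 33 tested regions at 15 against 0 min (orange) and 30 against 0 min (blue), with filled points where the region was called at an adjusted p under 0.05. Rows give the gene, the class of position and the distance of the centre in kb from the lower-coordinate gene end. The 3 strong Id3 regions lie between 0.90 and 1.23, which is a description because the gene was chosen on such values. The other filled points lie at 1.16 for 1 Id4 region and between -1.02 and -0.82 for 3 Smad6 regions, and most other points overlap 0 or lie beside it.

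The calls were also counted under other scalings of the libraries. With factors from regions at gene ends alone, the median over all tested regions moved from 0.02 to 0.18 at 15 min and from -0.001 to 0.10 at 30 min. The 15 min calls were then 5 higher and 2 lower, in place of 4 and 3, and the 30 min calls 3 higher and 0 lower, in place of 3 and 1. The higher calls include the 3 regions of Id3 at both times. Over all 15130 genes, read at their main gene-end region, the calls moved the same way. At 15 min they went from 317 higher and 1268 lower to 690 and 601, and at 30 min from 82 and 128 to 142 and 66. With library size alone the 30 min calls were 3 higher and 2 lower, and over all genes 79 higher and 161 lower. Under gene-end scaling the region over the start of Id3 was at 1.18 and that of Smad6 at -0.75 at 15 min. The shift is too small to turn changes of that size, so their kept direction is no test. The uncalled values of Id2 and Id4, which lay near 0, turned to 0.02 and 0.08.

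The genes whose main gene-end region varied most like that of each gene were taken from 7942 such regions, by Pearson correlation of log2 CPM over the 9 libraries. These are descriptions without a p, since the points share libraries and depth. For Id3 they were Bcat1, a gene of branched-chain amino acid breakdown (r = 0.988), the region shared by Lekr1 and Mir8120 (0.974) and Gm12974 (0.973), which had log2 changes of 0.57, 0.52 and 0.70 at 15 min. For Smad6 they were Zfp775 (r = 0.980), the Wnt receptor gene Fzd2 (0.977) and Kank1 (0.973), with -0.62, -0.71 and -0.55 at 15 min. For Smad7 they were Kmt2e (0.967), Ppia (0.966) and the region of Tubgcp2 and Zfp511 (0.947), and for Id4 Fam229a (0.969), Fndc10 (0.953) and the region of Gm36331 and Pcbp2 (0.953). For Id2 they were the region of Ccdc191 and Qtrt2 (0.934), that of 2700049A03Rik and Timm9 (0.910) and Gm807 (0.899), and for Id1 Gm40527 (0.895), Manbal (0.885) and the region of Gm13033 and Stx12 (0.868).

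Other genes of the pathway were read at their main gene-end region. Of 50 genes listed, 41 had such a region and 32 were tested, and at 15 min 0 were called higher and 2 lower, where 10.5% of all genes were called in either direction. That count varied when single libraries were left out. It was 9 without 15 min library 3, where 14.9% of all genes were called lower, and 7 without 0 min library 2, where 9.13% were. Tob1, an antiproliferative gene whose product restrains BMP Smads, gave 46.9, 46.3 and 36.2 CPM at 0 min, 23.7, 19.4 and 20.4 CPM at 15 min, and 29.7, 32.8 and 32.0 CPM at 30 min. Its times did not overlap. It fell by 1.03 ± 0.16 on the log2 scale at 15 min (edgeR, adjusted p = 0.000134), in all 17 alternatives too, and the change at 30 min was -0.46 ± 0.15 (adjusted p = 0.119). Dusp9, a phosphatase gene of ERK signalling reported as a BMP target in mouse stem cells, averaged 8.76 ± 0.429 CPM at 15 min and 10.7 ± 1.68 CPM at 30 min, against 14.3 ± 1.94 CPM at 0 min. It fell by 0.72 ± 0.21 at 15 min (edgeR, adjusted p = 0.0364). That call was lost without library 1 (0.126) or 2 (0.0860) of 0 min, without library 1 (0.118) or 2 (0.113) of 15 min, in a fit of the 2 times alone (0.0526) and with scaling on gene ends (0.105).

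At 30 min 0 of the 32 pathway genes were called by edgeR, where 1.39% of all genes were, and from 15 to 30 min 0 were called, where 0.866% were (0.357% higher and 0.509% lower). DESeq2 called 0 in both. At an unadjusted p under 0.05, 11 of the 32 passed at 15 min, 11 at 30 min and 2 from 15 to 30 min, against 26.6%, 14.5% and 10.1% of all genes. The median log2 change of the 32 was -0.35 at 15 min and -0.31 at 30 min, and over all 15130 genes it was -0.13 and -0.10. By role, the medians at 15 min were -0.59 for 4 ligand genes, -0.30 for 5 receptor genes, -0.22 for 3 signal-transducing Smads, -0.06 for 3 extracellular or membrane inhibitors, -0.24 for 7 intracellular brakes, -0.52 for the 3 E proteins bound by Id proteins and -0.36 for 7 other targets. The E protein gene Tcf4 was at -0.10 ± 0.14, Tcf12 at -0.52 ± 0.23 and Tcf3 at -0.72 ± 0.38, none of them called. Of the 7 other targets, 6 had a log2 change below 0 at 15 min, from -0.72 for Dusp9 to -0.22 for Msx2. The exception was Tbx3, which averaged 189 CPM at 15 min against 176 CPM at 0 min (log2 0.10 ± 0.10).

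**Figure D4:**
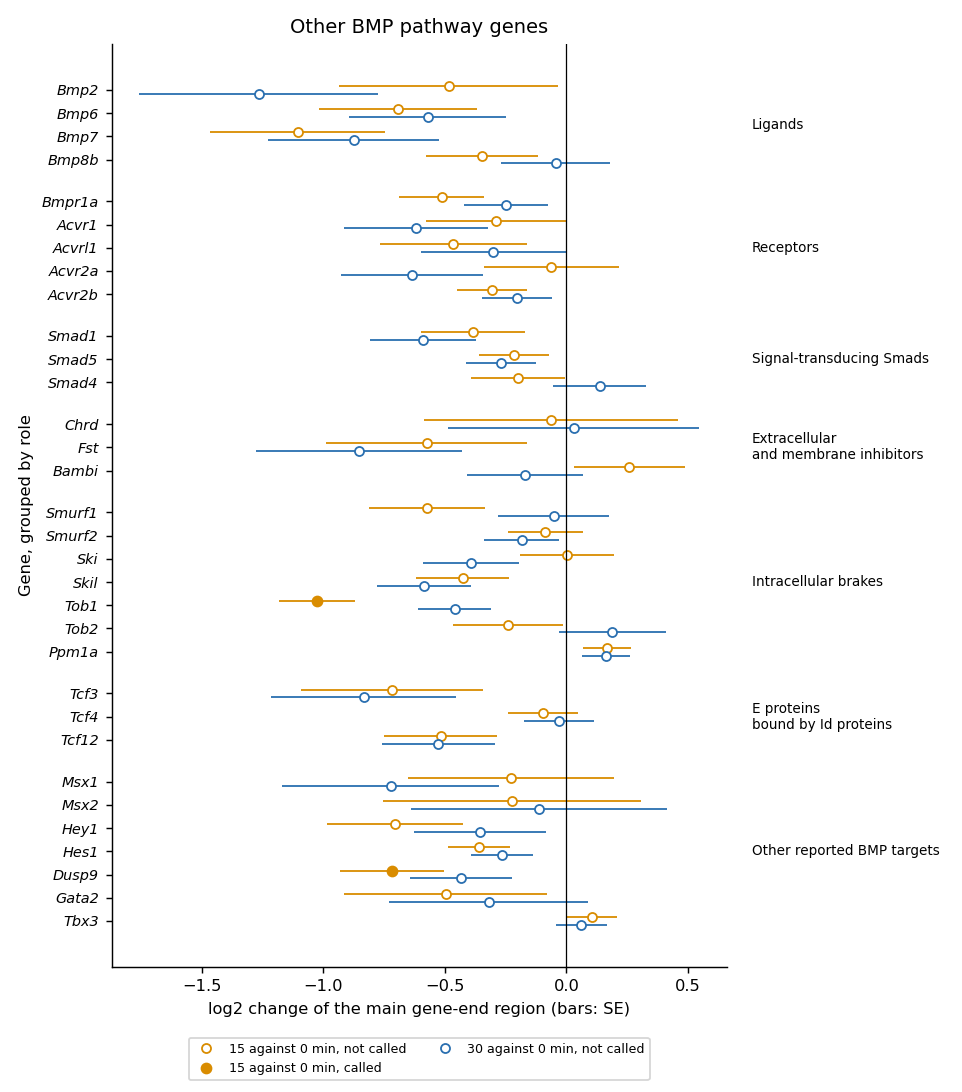
Change in log2 units (points, bars SE) of the main gene-end region of the 32 tested BMP pathway genes, grouped by role, at 15 against 0 min (orange) and 30 against 0 min (blue). Filled points mark calls at an adjusted p under 0.05, which are Tob1 at -1.03 and Dusp9 at -0.72 at 15 min. At 15 min the median of the 32 points is -0.35, and over all 15130 genes it is -0.13.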

How the data were processed

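The deposited table holds raw read counts of 9 PRO-seq libraries in windows of 600 bp, and the authors' deposited lists of regions hold other values, namely positions on mm10. Per the submitters' processing notes HISAT2, featureCounts and DESeq2 1.26.0 were used on mm10, and the file names name Tfit and muMerge. Settings and strand are not given in the sources used here. All 9 names in the table matched the titles.

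Regions were placed by the RefSeq annotation of GRCm38.p6, the assembly of mm10. In R 4.3.3 with edgeR 4.0.16, edgeR's default filter kept 54299 regions, TMM set the scale (factors 0.971 to 1.02), and 1 quasi-likelihood fit of all libraries had time as a factor. The coefficient of variation between replicates was 15.1%. SE is the log2 change over the square root of F. Calls were made at 0.05 after Benjamini-Hochberg adjustment over the tested regions. Tables were made in Python 3.11.15, and the fit was tested on simulated data. Reads of the Drosophila nuclei (1%) mixed in before the run-on were not used, so all changes are relative to other mouse regions.

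Members, lists and tests were chosen with earlier results of these data known. The text names the highest gene-end region of each gene, all called regions, up to 3 more strong regions a gene, and called pathway genes. The pathway list was written from general knowledge. Alternatives were 3 other scalings, 2 filters, 2 times alone, a block for replicate number, the Wald test of DESeq2 1.42.0, other distance limits, windows that overlap no other, and each library left out.

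Overlapping windows (29.2% of all, 13 of the 70) may share reads.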

Additional observations from a re-analysis of the deposited data

How the results depend on the processing

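For the member regions, the number called at 15 min ranged from 5 to 8 and at 30 min from 2 to 5 when 1 library was left out. The fit of all libraries gave 7 and 4. Over all genes, read at their main gene-end region, the share called in the left-out fits also moved. It ranged from 4.59% to 17.4% at 15 min and from 0.190% to 2.72% at 30 min, against 10.5% and 1.39% with all libraries. At 30 min the lowest count came without 0 min library 1, 30 min library 1 or 30 min library 3. From 15 to 30 min 0 were called in every alternative run. For the pathway genes the 15 min count of 2 became 4 with library size alone, 4 with no filter, 1 with factors from gene ends and 1 in a fit of the 2 times alone. All of these were lower. The share of all genes called lower in these fits was 9.97%, 6.9%, 3.97% and 6.65%, against 8.38% in the main fit. The pathway count ranged from 1 to 9 when 1 library was left out, with 9 without 15 min library 3 and 7 without 0 min library 2. All of them were lower, and 14.9% and 9.13% of all genes were called lower in those 2 fits. At 30 min that range was 0 to 1, and from 15 to 30 min 0 to 0. The cause was not tested. With the replicate number as a block the member counts were 7, 4 and 0 and the pathway counts 3, 0 and 0. In that fit 11.5%, 1.7% and 0.958% of all genes were called. The titles' numbers were not taken as pairs, since deviations of same-numbered libraries correlated at -0.048 to 0.176. Of 306 alternative values of the 6 main gene-end regions, 288 kept their sign, 9 lost a call, all of Smad6, and 1 gained one, for Smad7. Depth limits the 37 untested regions, at 0 to 8 reads per library on average.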
